A study of Homo sapiens with 6 samples.

Results

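Matrix proteases and their inhibitors were compared between a HEK293 cell line that expresses myocilin and its vector control. The group was defined by name and held 34 genes, and a gene's probe sets were those that the platform annotation gives to that gene alone. All 34 genes were found, with 81 of the 41751 probe sets in the deposited table, among 18338 genes in all. By class there were 12 matrix metalloproteases (MMP), 7 ADAM genes, 5 ADAMTS genes, 3 genes of the plasminogen system, 4 TIMP genes, the serpin SERPINE2, the inhibitor RECK and the serine protease HTRA1.

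RNA came from stable Tet-On HEK293 lines, a human embryonic kidney line in which doxycycline switches on the inserted gene, and was hybridised to Affymetrix HG-U133 Plus 2.0 arrays. The line with the myocilin-expressing vector had 3 arrays and the line with the control vector 3. Both lines carry the Tet-On system and were kept in hygromycin B and G418; the protocol, worded alike for both, gives 0.2 or 1 µg/ml doxycycline for 48 h, without saying which dose went with which array, and only the myocilin samples are described as treated with doxycycline. Each group is a single stable line, so myocilin and any other difference between the lines cannot be told apart, and the labels name no separate cultures; p-values then measure only the spread between these arrays, which may be technical.

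The values are log2 values centred by the authors, so a value shows how an array stands against a reference level of that probe set and not how abundant the transcript is; the base of the logarithm was inferred. Correlations over probe sets were 0.513 to 0.608 among myocilin arrays and 0.409 to 0.464 among control arrays. MYOC, the inserted gene, read 0.21, 0.20 and 0.24 on the myocilin arrays, against -6.71, -8.32 and -8.29 on the control arrays, so the labels and the values run the same way. Centred values cannot show whether a HEK293 marker was absent. Of 10 genes reported for HEK293, 4 rose and 0 fell, against 15.6% of all genes past the threshold, with 8 at an unadjusted p under 0.05, against 30% of all genes, and the list mean was 0.227 to 0.251 on myocilin arrays and -0.155 to -0.065 on control arrays. Its part in the results was not tested. Of 8 fibroblast and mesenchymal markers, 1 rose (COL1A1, at 0.25), and the list mean was -0.017 to 0.036 on myocilin arrays and -0.053 to 0.008 on control arrays. Of 5 endothelial and 4 leukocyte markers, 0 passed limma, with 0 and 1 at an unadjusted p under 0.05.

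Matrix proteases cut the proteins outside and on the surface of cells. MMPs are zinc enzymes made as inactive precursors that degrade collagens, laminins and proteoglycans, ADAMs are membrane-bound relatives that shed the outer parts of receptors and growth factors, and ADAMTS enzymes are secreted and act on proteoglycans and procollagens. TIMPs and RECK block the metalloproteases, while plasminogen activators start a serine protease cascade that serpins restrain. In the trabecular meshwork of the eye, where myocilin is best known, MMPs and TIMPs are regulators of aqueous humour outflow.

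Most of these genes did not pass the test. At an adjusted p under 0.05 (limma, Benjamini-Hochberg over all 18338 genes), 6 of 34 genes changed: ADAMTS1, ADAMTS3, ADAM10 and PLAT fell in the myocilin line, and TIMP3 and MMP15 rose. That is 17.6% of the group, against 15.6% of all genes, 8.28% higher and 7.35% lower, so the share was near the background. At the level of probe sets, 12 of 81 (14.8%) passed, 5 higher and 7 lower, against 11% of all probe sets, 5.46% higher and 5.56% lower. The values of the lines did not overlap for 12 of the 34 genes (35.3%), against 34.9% of all genes, and for 23.5% of the group's probe sets, against 30.4% of all. The median log2 difference, myocilin minus control, was 0.04 over the 34 genes and the median absolute difference 0.12. Only ADAMTS1 and ADAMTS3 differed by at least 0.5 as genes. With each gene's own variance in place of limma's moderated one, the test called only TIMP3 of the 34, and 44 of all genes.

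**Figure D1:**
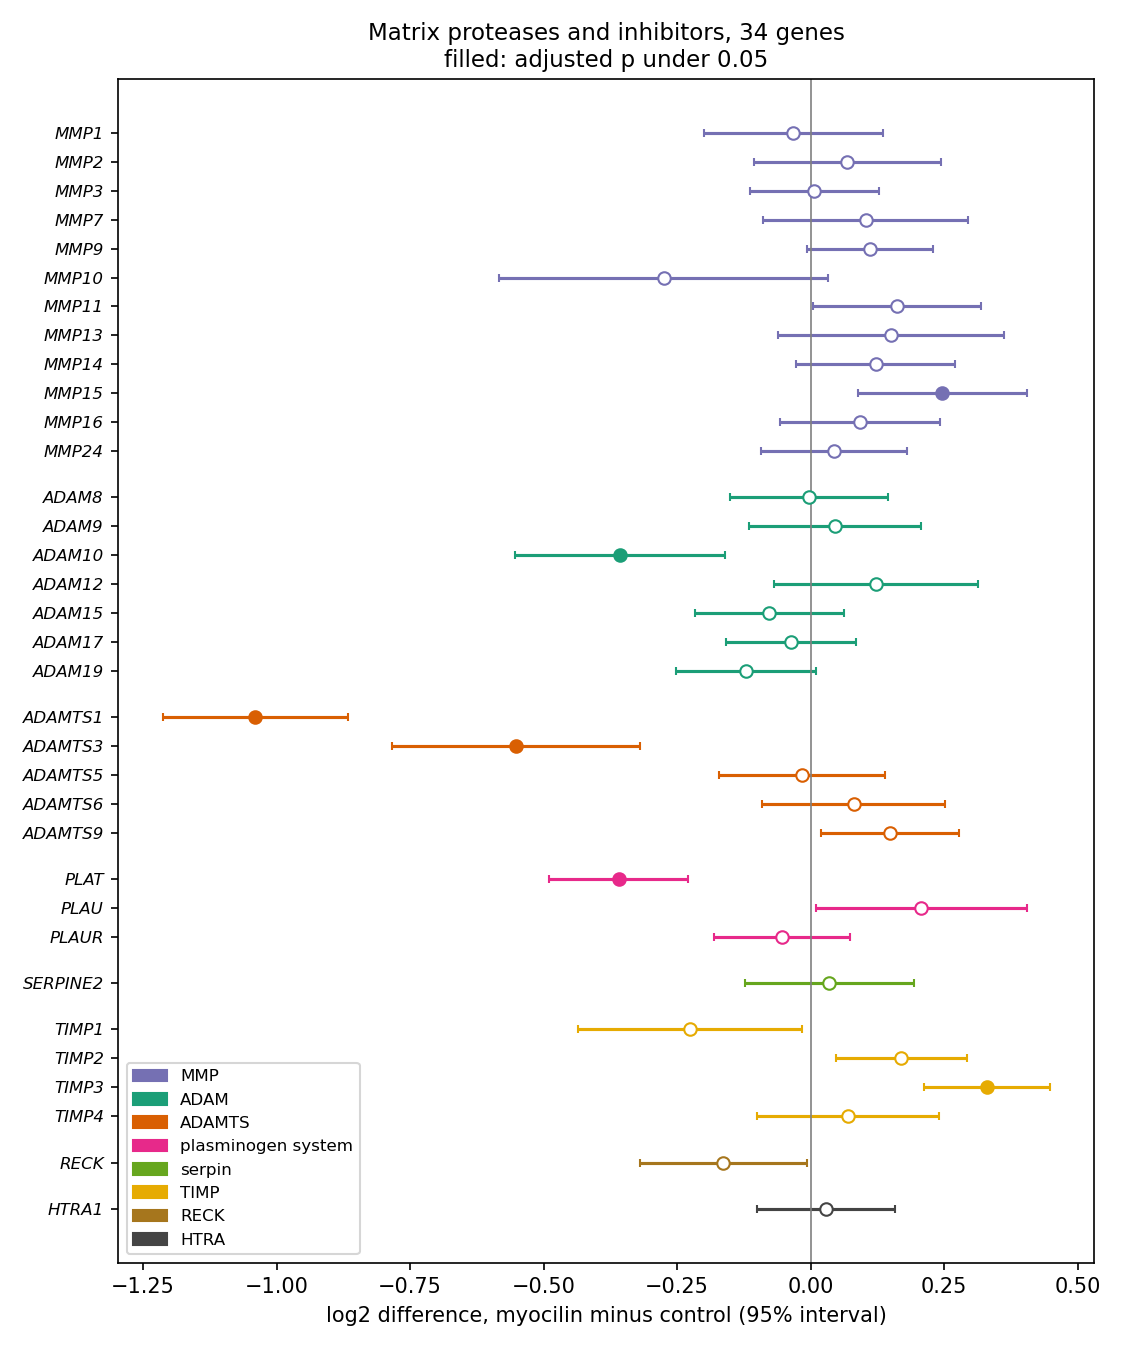
Log2 difference between the lines, myocilin minus control, for each of the 34 genes, grouped and coloured by class; bars are 95% intervals of the limma fit and filled points passed the threshold. ADAMTS1, at -1.04, lies apart from all other genes, and the differences of the remaining genes run from -0.55 to 0.33.

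ADAMTS1, a secreted protease that cleaves the proteoglycans aggrecan and versican, had the largest difference. Its probe set 222486_s_at read -1.01, -0.93 and -0.99 on the myocilin arrays, against 0.18, 0.00 and 0.23 on the control arrays. The other, 222162_s_at, read -0.87, -0.68 and -0.92 on the myocilin arrays, against 0.15, 0.00 and 0.27 on the control arrays. Both probe sets were low on every myocilin array, and the groups were far from overlapping. As a gene ADAMTS1 averaged -0.90 ± 0.08 in the myocilin line and 0.14 ± 0.13 in the control line (SD, n = 3 each). It fell by 1.04 with a standard error of 0.08 on the log2 scale (limma adjusted p = 6.99e-05), which is 2.06-fold lower at face value. In bulk RNA, less transcript in each cell and fewer cells making it cannot be told apart.

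ADAMTS5, the aggrecanase gene that lies next to ADAMTS1 on chromosome 21 with 0 protein-coding genes between them, did not pass. Its 4 probe sets differed by -0.13 to 0.15, and the gene by -0.02 with a 95% interval of -0.17 to 0.14. The median difference of the 50 measured genes nearest to ADAMTS1 was 0.00.

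ADAMTS3, which removes the N-propeptide of procollagen and processes the lymphatic growth factor VEGFC, has 1 probe set. It read -0.17, -0.39 and -0.50 on the myocilin arrays, against 0.04, 0.37 and 0.19 on the control arrays. The arrays of each line spread widely, by an SD of 0.17 in both, but the groups did not overlap. The gene fell by 0.55 ± 0.10 (log2, SE; limma adjusted p = 0.00758), and its 50 neighbours had a median of 0.00.

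ADAMTS9, a proteoglycan-cleaving relative, and ADAMTS6 did not pass as genes. For ADAMTS9, 1 of 4 probe sets, 226814_at, rose. It read 0.27, 0.33 and 0.32 on the myocilin arrays, against -0.03, -0.13 and 0.06 on the control arrays, a log2 difference of 0.34 ± 0.08 (SE, limma adjusted p = 0.0204). The other 3 differed by 0.00 to 0.14, none past the threshold, so the rise was seen by this probe set and not by the gene mean of 0.15 (limma adjusted p = 0.114). The probe set passed without control replicate 3 and in none of the other 5 fits that leave out an array. ADAMTS6 differed by 0.08, with a 95% interval of -0.09 to 0.25.

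**Figure D2:**
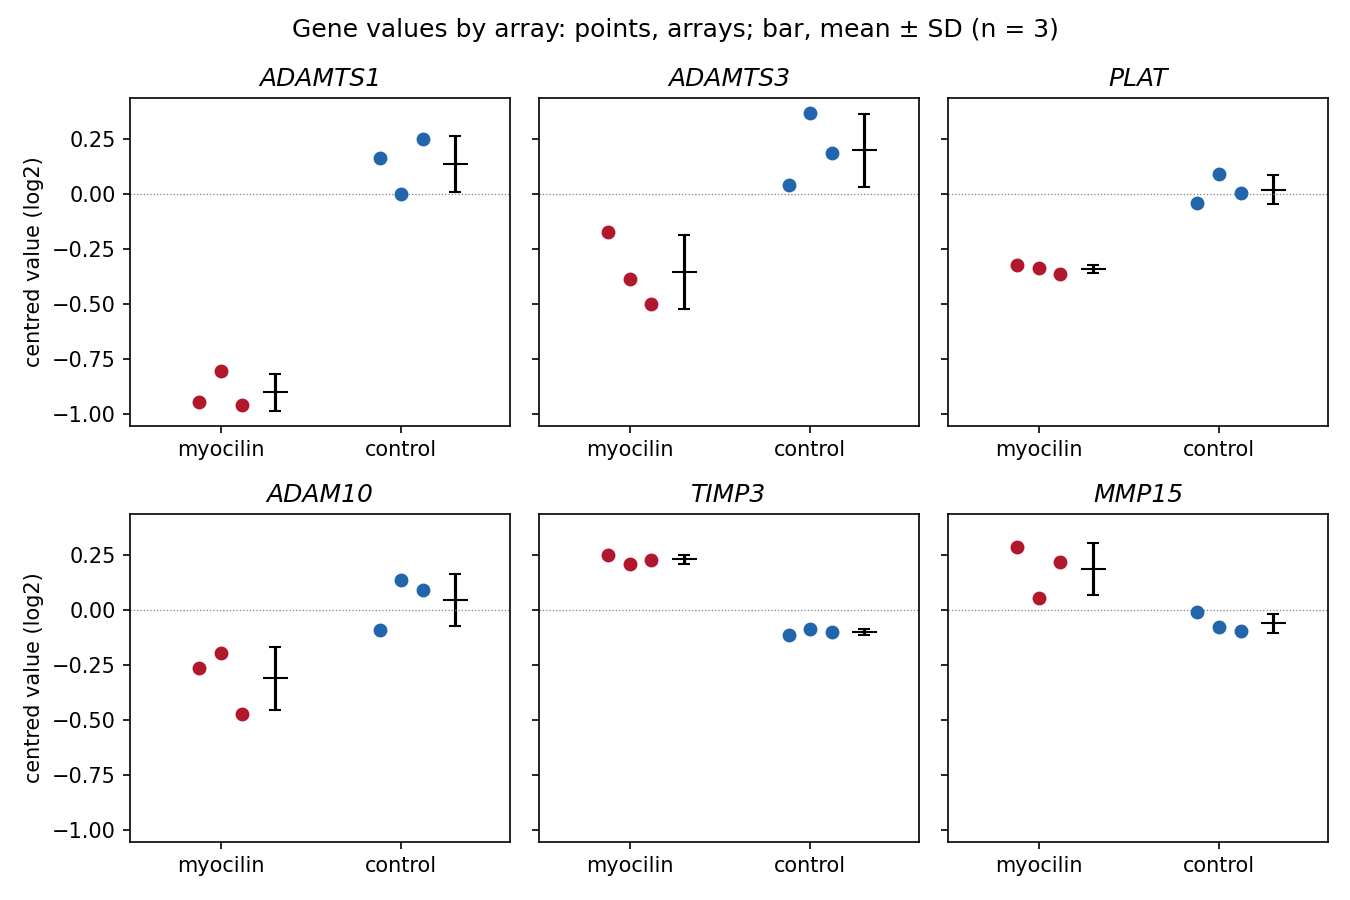
Centred log2 values of the 6 genes past the threshold on each array, with the myocilin line left and the control line right of each panel; points are arrays and the bar beside them is the mean ± SD (n = 3 each). The myocilin arrays lie below the control arrays for ADAMTS1, ADAMTS3, PLAT and ADAM10 and above them for TIMP3 and MMP15, with no overlap in any panel.

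In the plasminogen system, PLAT fell. It encodes tissue plasminogen activator, the protease that turns plasminogen into plasmin on fibrin. PLAT has 1 probe set, with values of -0.32, -0.33 and -0.36 on the myocilin arrays, against -0.04, 0.09 and 0.01 on the control arrays. The myocilin arrays lay close together (SD 0.02), and all below the control arrays. The fall was 0.36 ± 0.06 (log2, SE; limma adjusted p = 0.00388), or 1.28-fold lower. PLAU, the urokinase gene, differed in the other direction by 0.21, with a 95% interval of 0.01 to 0.41, and did not pass (limma adjusted p = 0.148). PLAUR, the receptor that holds urokinase at the cell surface, differed by -0.05 and its 3 probe sets by -0.18 to 0.06. SERPINE2, the serpin that inhibits thrombin and plasminogen activators, differed by 0.04, with a 95% interval of -0.12 to 0.19. HTRA1, a secreted serine protease that cuts matrix proteins, differed by 0.03, with an interval of -0.10 to 0.16.

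Among the inhibitors, TIMP3 rose. It differs from other TIMPs in that it binds to the matrix and inhibits several ADAM and ADAMTS enzymes as well as MMPs. Its probe set 201147_s_at read 0.42, 0.40 and 0.44 on the myocilin arrays, against -0.10, -0.10 and -0.01 on the control arrays. Probe set 201148_s_at read 0.29, 0.20 and 0.21 on the myocilin arrays, against -0.06, -0.16 and -0.12 on the control arrays. Probe set 201149_s_at read 0.10, 0.07 and 0.19 on the myocilin arrays, against -0.30, -0.16 and -0.27 on the control arrays. These 3 probe sets passed, 201148_s_at not without myocilin array 1 (limma adjusted p = 0.0656), and none overlapped between the lines, while the last, 201150_s_at, differed by 0.13 (limma adjusted p = 0.324). As a gene TIMP3 averaged 0.23 ± 0.02 in the myocilin line and -0.10 ± 0.02 in the control line (SD, n = 3 each), a rise of 0.33 ± 0.05 (log2, SE) or 1.26-fold (limma adjusted p = 0.00366).

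The other TIMPs did not pass. TIMP2, which inhibits MMPs and also helps MMP14 activate MMP2 at the cell surface, lay just outside the threshold, with a difference of 0.17 (95% interval 0.05 to 0.29, limma adjusted p = 0.0664). Its 3 probe sets read alike, at 0.16 to 0.18. TIMP1 differed by -0.23, with a 95% interval of -0.44 to -0.02 (limma adjusted p = 0.138). It read -0.18, -0.14 and 0.10 on the myocilin arrays, against 0.31, 0.05 and 0.10 on the control arrays, so the groups overlapped. TIMP4 differed by 0.07. RECK, a membrane-anchored inhibitor of MMPs, differed by -0.16 as a gene (limma adjusted p = 0.149), and its 5 probe sets differed among themselves. Of these, 205407_at fell by 0.50 ± 0.10 (log2, SE; limma adjusted p = 0.012). It read -0.27, -0.17 and -0.52 on the myocilin arrays, against 0.10, 0.25 and 0.18 on the control arrays, with no overlap. The other 4 ran from -0.17 to 0.06, none past the threshold.

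Of the ADAM genes, ADAM10, the sheddase of Notch receptors and alpha-secretase of the amyloid precursor protein, fell. Its probe set 214895_s_at read -0.40, -0.21 and -0.60 on the myocilin arrays, against -0.01, 0.24 and 0.17 on the control arrays, a fall of 0.54 ± 0.11 (log2, SE; limma adjusted p = 0.0124). The other probe set, 202604_x_at, differed by -0.18 and its groups overlapped (limma adjusted p = 0.254). The gene fell by 0.36 ± 0.09 (limma adjusted p = 0.0249), while the 50 nearest genes had a median of -0.08. With the neighbours subtracted the difference was -0.28 and no longer passed (limma adjusted p = 0.0583). Among the 6 fits that leave out 1 array, ADAM10 passed in 2, those without myocilin array 2 and without control array 1, and ran from -0.43 to -0.28.

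The remaining ADAM genes did not pass. ADAM17, the enzyme that releases tumour necrosis factor and ligands of the EGF receptor, differed by -0.04, with a 95% interval of -0.16 to 0.08. Its 3 probe sets ran from -0.13 to 0.12. For ADAM19, a sheddase of neuregulin, 221128_at fell by 0.27 ± 0.07 (log2, SE; limma adjusted p = 0.0311) and the other probe set read 0.03, giving -0.12 for the gene (limma adjusted p = 0.201). Probe set 221128_at read -0.21, -0.20 and -0.17 on the myocilin arrays, against 0.04, 0.11 and 0.08 on the control arrays, with no overlap. It passed limma in 0 of the 6 fits that leave out 1 array (highest adjusted p = 0.105), and had an unadjusted p under 0.05 in 6 of them. ADAM8, ADAM9, ADAM12 and ADAM15 differed by -0.08 to 0.12.

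**Figure D3:**
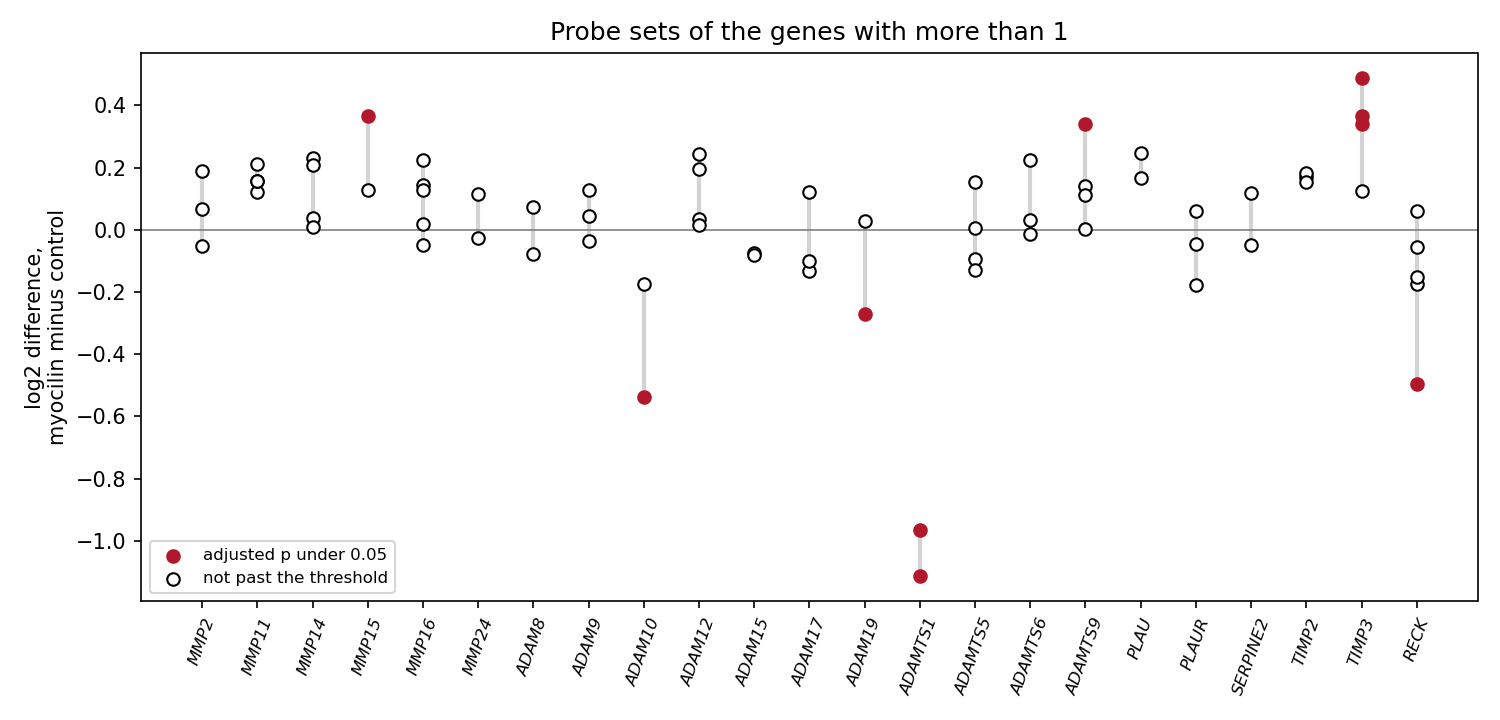
Log2 difference, myocilin minus control, of every probe set of the 23 genes with more than 1; filled points passed the threshold and grey lines join probe sets of 1 gene. Both ADAMTS1 probe sets and 3 of 4 for TIMP3 passed, whereas RECK, ADAM10, ADAM19, ADAMTS9 and MMP15 each passed with 1.

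Among the MMPs, 1 of 12 genes passed (8.33%), against 15.6% of all genes, and 1 of 26 probe sets, against 11% of all probe sets. Of the 12, 10 had a positive difference, with a median of 0.10, against 55.3% of all genes and a median of 0.02. Among these 10, MMP7 at 0.10 read 0 without control array 3, and MMP3 differed by 0.01. A shift of the MMPs as a class was not tested. MMP15, a membrane-type MMP, rose by 0.25 ± 0.07 (log2, SE; limma adjusted p = 0.0428). Its probe set 203365_s_at read 0.44, 0.10 and 0.37 on the myocilin arrays, against 0.02, -0.14 and -0.05 on the control arrays, a difference of 0.36, and 243883_at differed by 0.13 without passing. The groups did not overlap in either. MMP15 and MMP2 lie on chromosome 16, and the 50 genes nearest to MMP15 had a median difference of 0.18. With these subtracted, MMP15 read 0.09 and did not pass (limma adjusted p = 0.355). It passed in 1 of the 6 fits that leave out an array, the one without myocilin array 2, and ran from 0.20 to 0.31. MMP2, the gelatinase, differed by 0.07, beside a neighbour median of 0.13.

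The secreted MMPs did not pass. MMP1 and MMP13, collagenases, MMP3 and MMP10, stromelysins, and MMP7, matrilysin, lie in a cluster of 9 protein-coding genes on chromosome 11. Of these 5, 0 passed in limma, against 15.6% of all genes, and 0 had an unadjusted p under 0.05, against 30% of all genes. They ran from -0.28 for MMP10 to 0.15 for MMP13. MMP10 read 0.00, 0.00 and -0.16 on the myocilin arrays, against 0.59, 0.10 and -0.03 on the control arrays, and without control array 1 the difference was -0.09. MMP7 was listed at 0 on all myocilin arrays and 2 control arrays. There 0 is the authors' centre, and whether the transcript was present cannot be told from centred values. MMP12, a macrophage elastase gene of the same cluster that is outside the group, rose by 0.25 ± 0.06 (log2, SE; limma adjusted p = 0.0289), a call kept in 1 of the 6 fits that leave out an array and lost with neighbours subtracted (limma adjusted p = 0.0511). MMP9, the other gelatinase, did not overlap between the lines but differed by 0.11 (limma adjusted p = 0.193). MMP11 differed by 0.16, with its 4 probe sets at 0.12 to 0.21. The membrane-type genes MMP14, MMP16 and MMP24 differed by 0.12, 0.09 and 0.04.

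**Figure D4:**
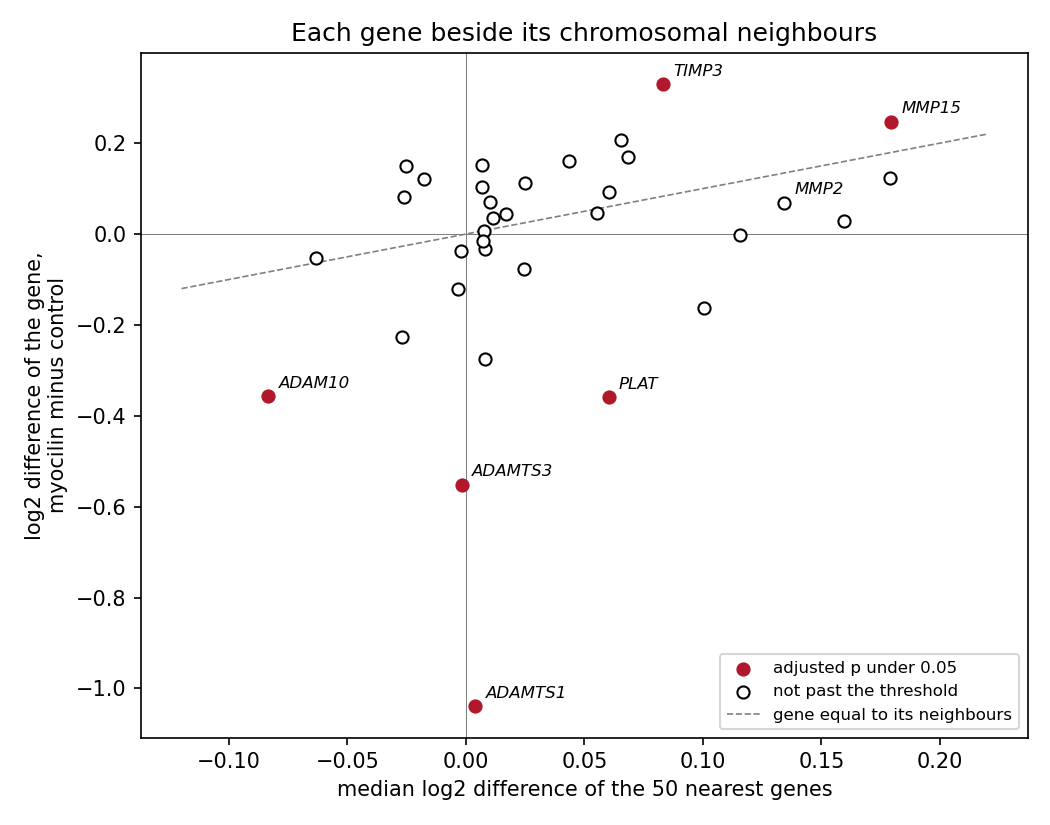
Log2 difference of each of the 34 genes (vertical axis) against the median difference of its 50 nearest measured genes (horizontal axis); filled points passed the threshold, and the dashed line marks a gene equal to its neighbours. MMP15, at 0.25, sits near the dashed line, with neighbours at 0.18, while ADAMTS1, ADAMTS3 and PLAT lie far below it.

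Promoter sequences are shown for the changed genes with an entry, and for MMP10 from the chromosome 11 cluster, which did not pass, to set their letters side by side. They are the 250 bases before the RefSeq start (GRCh38.p14), written 5′ to 3′ on the gene's strand. Capitals mark matches, on either strand, to the AP-1 site TGANTCA, the GC box GGGCGG, which reads CCGCCC from the opposite strand, and the TATA box TATAAA.
TIMP3, chr22:32801455-32801704, plus strand: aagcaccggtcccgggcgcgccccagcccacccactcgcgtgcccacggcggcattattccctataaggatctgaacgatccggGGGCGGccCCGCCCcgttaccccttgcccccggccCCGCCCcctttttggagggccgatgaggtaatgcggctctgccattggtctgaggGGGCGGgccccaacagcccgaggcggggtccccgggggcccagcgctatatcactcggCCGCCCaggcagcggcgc
MMP15, chr16:58025504-58025753, plus strand: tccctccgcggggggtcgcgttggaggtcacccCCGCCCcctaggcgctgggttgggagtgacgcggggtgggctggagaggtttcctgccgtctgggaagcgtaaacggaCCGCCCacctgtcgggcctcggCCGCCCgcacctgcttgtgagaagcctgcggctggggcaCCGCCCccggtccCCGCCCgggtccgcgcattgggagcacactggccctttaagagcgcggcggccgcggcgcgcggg
ADAM10, chr15:58749708-58749957, minus strand: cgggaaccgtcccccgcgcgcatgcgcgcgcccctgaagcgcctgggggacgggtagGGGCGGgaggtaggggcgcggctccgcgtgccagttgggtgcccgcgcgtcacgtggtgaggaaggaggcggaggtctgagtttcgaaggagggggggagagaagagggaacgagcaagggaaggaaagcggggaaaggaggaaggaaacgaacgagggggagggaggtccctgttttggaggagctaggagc
ADAMTS3, chr4:72569222-72569471, minus strand: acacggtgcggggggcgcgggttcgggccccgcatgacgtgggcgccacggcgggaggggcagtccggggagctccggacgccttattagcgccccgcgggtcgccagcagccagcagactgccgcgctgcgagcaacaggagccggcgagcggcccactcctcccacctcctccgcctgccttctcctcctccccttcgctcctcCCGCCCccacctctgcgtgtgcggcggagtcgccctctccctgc
MMP10, chr11:102780629-102780878, minus strand: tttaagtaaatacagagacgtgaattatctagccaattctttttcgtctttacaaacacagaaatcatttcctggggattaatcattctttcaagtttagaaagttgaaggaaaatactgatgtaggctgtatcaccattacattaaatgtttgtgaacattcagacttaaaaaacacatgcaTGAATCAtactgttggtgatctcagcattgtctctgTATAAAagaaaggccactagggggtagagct

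The promoters of the 4 changed genes with an entry were rich in G and C, from 68.4% in ADAM10 to 75.2% in ADAMTS3. That of MMP10 held 34.4%, beside a median of 58% over all promoters. A high GC share does not set changed genes apart: the 20 promoters of genes that did not pass ran from 33.6% to 81.2%, and 10 of them held at least 68.4%. TIMP3 and MMP15 held 5 GC boxes each, and ADAM10 and ADAMTS3 held 1 each. Genes that did not pass spanned this range, with 6 boxes in ADAM15, 5 in HTRA1, 1 in MMP14 and 0 in ADAM19. MMP10 held an AP-1 match ending 60 bases before the start and a TATA box ending 25 bases before it. MMP7, from the same cluster, had the same 2 motifs, 60 and 24 bases before its start. No marked matches overlapped in the 5 sequences. ADAMTS1 and PLAT had no entry in the promoter set used here, which held 24 promoters for 22 of the 34 genes. A GC box was found in 18 of these (75%), against 42.6% of all 35116 promoters, AP-1 in 3 (12.5%), against 6.6%, and TATAAA in 2 (8.3%), against 10.7%. A match is a run of letters and does not show that a factor bound there.

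Other genes of the same pathways are given from lists of related genes. Of 10 other MMPs, 1 rose (MMP12, above) and 0 fell (10% called, against 15.6% of all genes). Of 12 other ADAM genes, 0 rose and 2 fell (16.7%), ADAM23 at -0.24 and ADAM21 at -0.24. At an unadjusted p under 0.05 these counts were 3 and 2 in either direction, against 30% of all genes. From its first probe set by ID alone, ADAM23 read 0.068, with the direction turned, and ADAM21 -0.42 (limma adjusted p = 0.659 and 0.0159). Both lost their calls with neighbours subtracted. With 1 array left out, ADAM23 passed in 2 and ADAM21 in 1 of the 6 fits. Of 19 other ADAMTS and ADAMTS-like genes, 1 rose and 1 fell (10.5%). ADAMTS2, another procollagen N-proteinase, rose by 0.59 ± 0.12 and ADAMTS17 fell by 0.48 ± 0.07 (log2 with SE, limma adjusted p = 0.0129 and 0.0023). ADAMTS2 averaged 0.42 ± 0.14 in the myocilin line and -0.17 ± 0.27 in the control line (SD, n = 3 each), and ADAMTS17 -0.13 ± 0.05 in the myocilin line and 0.35 ± 0.11 in the control line. From their first probe sets alone ADAMTS2 read 0.25 and ADAMTS17 -0.34, and neither passed (limma adjusted p = 0.163 and 0.069). At the gene means ADAMTS3, which rests on 1 probe set, and ADAMTS2 moved in opposite directions.

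Of 16 other genes of the plasminogen system, 1 rose and 1 fell (12.5% called, against 15.6% of all genes). VLDLR, a receptor that takes up protease and inhibitor complexes, fell by 0.56 ± 0.09 (log2, SE; limma adjusted p = 0.00406), and its relative LRP8 rose by 0.34 ± 0.08 (limma adjusted p = 0.0245). LRP8 passed in 1 of the 6 fits that leave out an array. Of 19 activators and partners of metalloproteases, 2 rose and 3 fell (26.3%, against 15.6% of all genes). TSPAN5, a tetraspanin that carries ADAM10 to the cell surface, fell by 0.46 ± 0.06 (limma adjusted p = 0.00154). The other tetraspanins of the list ran from -0.03 to 0.15, none past the threshold. A link to the fall of ADAM10 was not tested. TSPAN5 averaged -0.44 ± 0.07 in the myocilin line and 0.02 ± 0.06 in the control line. RHBDF1, an inactive rhomboid that ADAM17 needs for maturation, rose by 0.68 ± 0.09 (limma adjusted p = 0.00178). From its first probe set alone RHBDF1 read 1.18. It lies on chromosome 16, where its neighbours had a median of 0.13. PCSK5, a proprotein convertase, fell by 0.34 ± 0.08 (limma adjusted p = 0.0235), and passed in 2 of those 6 fits.

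Of 22 astacin, cathepsin and other matrix proteases and their partners, 1 rose and 4 fell (22.7%, against 15.6% of all genes). PCOLCE2, an enhancer of procollagen C-proteinase, fell by 0.52 ± 0.06, the cathepsin gene CTSV by 0.36 ± 0.06 and the heparanase gene HPSE by 0.34 ± 0.06 (log2, SE; limma adjusted p = 0.000813, 0.0048 and 0.00758). HPSE read -0.28 without probe sets whose names end in _x_at or _s_at and did not pass (limma adjusted p = 0.132). Of 38 matrix proteins that such enzymes cut, 4 rose and 4 fell, 21.1%, with a median of -0.03. They were led by the fibrillin gene FBN1 at 0.83, the fibronectin gene FN1 at -0.45 and the laminin gene LAMA1 at -0.48; the neighbours of LAMA1, on chromosome 18, had a median of -0.30. FN1 read -0.17 without probe sets whose names end in _x_at or _s_at, and LAMA1 -0.20 with its neighbours subtracted, neither past the threshold. The shares that passed in these 7 lists ran from 10% to 26.3%, against 15.6% of all genes, and their medians from -0.03 to 0.04.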

How the data were processed

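Transcript levels of 6 HG-U133 Plus 2.0 arrays were read from the deposited series matrix. Its values are log2 values centred by the authors around 0; the sources used here name no background correction, summarisation or normalisation, and the base was inferred from the values. An exact 0 stood on at least 1 array for 57.3% of all probe sets and for 40 of the 81 of this group (49.4%). Centring removes brightness, so levels of different genes cannot be compared, and no detection call or filter on dim probe sets was possible. Precision is limited by 3 arrays per line.

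Arrays were grouped by source name; the numbers in their titles are not shared between the lines, so nothing was paired. Of 39188 probe sets in the platform annotation, 37460 named 1 gene and 1728 several; 2563 were not listed. Symbols and chromosomes came from RefSeq (GRCh38.p14) by Entrez identifier. Probe sets of 1 gene were averaged. The 2-sided moderated test of limma 3.58.1 (R 4.3.3) was run over 41751 probe sets and again over 18338 genes; p-values were adjusted by Benjamini-Hochberg and called under 0.05. The fit was tested on simulated data. Neighbours were the 50 nearest measured genes by start. Every gene of the group could be named; other genes were MYOC and up to 3 called genes of each list with the lowest p, apart from COL1A1, named because its list had 1 call. Genes and lists were chosen with earlier results of these data known. An exact permutation test of 3 against 3 arrays cannot go below p = 0.1 and was not used.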

Additional observations from a re-analysis of the deposited data

How the results depend on the processing

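Over the alternatives tried, the 34 genes gave 468 values, of which 450 kept their side of the threshold and none gained a call. Most of these values came from the 28 genes that had no call to lose. The 18 lost calls all fell on the 6 called genes. MMP15 lost 8 of 14 and ADAM10 7 of 13, ADAMTS1, ADAMTS3 and PLAT lost 1 each, and TIMP3 lost 0. ADAMTS1, ADAMTS3, PLAT and TIMP3 passed in all 6 fits that left out 1 array and with chromosomal neighbours subtracted; that subtraction left 4 genes, without ADAM10 and MMP15. The Welch test, with each feature's own variance, called 1 of the 34 genes (TIMP3) and 0 of the 81 probe sets, where 9 genes and 14 probe sets had an unadjusted p under 0.05; it called 44 genes and 26 probe sets in the whole table. Dropping every probe set whose name ends in _x_at or _s_at left 1 called gene (ADAMTS3) and 4 probe sets, and 1878 genes and 2695 probe sets in all; 8 genes, among them ADAMTS1, PLAT, TIMP3 and ADAM10, have no other probe set and were not tested there. Leaving out each array gave 4 to 6 called genes and 8 to 10 probe sets of the group, and 1613 to 2220 genes and 2281 to 3283 probe sets in all. Quantile normalisation, array weights and eBayes with trend and robust fitting called the same 6 genes. Every array already had a median of 0, so median centring could move nothing and is no test of the calls. ADAM23, outside the group, read 0.068 from its first probe set by ID (adjusted p = 0.659, and 0.0261 to 0.659 over its alternatives); the cause was not tested. The named genes outside the group gave 235 values, of which 181 kept their side of the threshold and 53 kept their direction but no longer passed. The remaining 1, that of ADAM23 from its first probe set, turned direction and did not pass. No paired analysis was possible because the lines share no replicate numbers in the labels.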
